A study of Mus musculus with 15 samples.

Results

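The genes described are the alcohol dehydrogenases (Adh), aldehyde dehydrogenases (Aldh) and aldo-keto reductases (Akr) of the mouse, measured in primary hepatocytes. They were chosen by a symbol rule, with earlier results of these data known. The rule took every gene with a probe set of 1 gene symbol in the platform annotation. The symbol had to begin with Adh, Aldh or Akr and a digit, and Akr1d1 was left out. This gave 41 of 18193 genes, each represented by its probe set with the largest SD over the arrays. That SD includes the differences between groups. Of the 41 members, 34 were tested among 12423 genes. The other 7 were left out because their values followed the array background (correlation above 0.8) with an SD under 0.5.

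Alcohol dehydrogenases oxidise ethanol, retinol and other alcohols to aldehydes or ketones, and aldehyde dehydrogenases carry aldehydes on to acids. Aldo-keto reductases mostly work the other way, using NADPH to reduce aldehydes and ketones, and those of the Akr1c group also interconvert hydroxy- and ketosteroids. The liver is the main site of ethanol oxidation and of the breakdown of several amino acids that pass through an aldehyde, so hepatocytes are rich in many of these enzymes.

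RNA came from hepatocytes of male C57BL/6 mice and was hybridised to 15 Affymetrix arrays, 3 in each of 5 groups, described as independent biological replicates. Freshly isolated cells (t0) were the baseline. The cultured groups were monolayers in tissue culture dishes (TCD) and three-dimensional aggregates in rotating wall vessels (RWV), each kept for 4 h or 24 h. No group carried a genetic change or an added drug in the labels, and neither the age of the mice nor pooling of animals is given in the sources used here.

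Values are given on the log2 scale relative to the fresh median, which the deposited table held at 0 for each probe set. They therefore carry no signal level, and genes cannot be ranked by abundance. The error after ± is the standard error from a limma fit across all genes and arrays. For the Actb and Gapdh gaps given below as a sign of RNA quality, it comes only from the 3 arrays of each group compared. The threshold for a call was a p below 0.05 after Benjamini-Hochberg adjustment over all 12423 genes. Only 3 arrays a group limit the precision. In whole-culture RNA, fewer cells of a type and less RNA per cell cannot be told apart. The 10 hepatocyte markers tested do not give a level either, but 9 of them fell by 24 h in both vessels. Markers of bile duct cells moved with the vessel: in RWV at 24 h, 3 of 4 tested (Krt19, Epcam and Cldn4) were lower than in TCD and none was higher, and the mean change of the 4 lay between 1.56 and 2.5 in RWV and between 4.35 and 5.5 in TCD. Of 10 Kupffer cell, 6 endothelial and 6 stellate markers, 1 of each was lower in RWV than in TCD and none was higher.

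Markers of other cells also moved from fresh to 24 h. Of the bile duct markers, 4 of 4 were higher in TCD and 2 of 4 in RWV (Sox9 and Cldn4). Of the 10 Kupffer cell markers, Cd68 rose by 9.99 in TCD and 8.78 in RWV, and Marco, C1qa and Lyz2 rose in RWV too. Their mean lay between 0.61 and 1.39 in TCD and between 0.74 and 2.43 in RWV, against -0.39 to 0.26 in fresh cells. In TCD the 9 besides Cd68 were not called. The median change of the 10 was -0.08 in TCD and 1.06 in RWV. Of the 6 stellate markers, Reln rose by 5.53 in TCD and none was called in RWV. The list's mean lay between 0.85 and 0.98 in TCD and between -0.04 and 0.32 in RWV. In TCD the 5 stellate markers besides Reln were not called and changed by -0.11 to 0.02. Of the 6 endothelial markers, Clec4g changed by -4.04 in TCD and -3.87 in RWV, and Stab2 by 1.51 and -0.85, all called. The part of these cells in the results below was not tested.

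On the TCD 4 h array of replicate 2 the 18 hybridisation controls had a median of 1.08, against -0.73 to 0.18 on the other 14. Values without that array are given where it changes a call. A sign of RNA quality moved with the vessel at 24 h: the gap between the 3′ and 5′ probe sets of Actb, relative to fresh cells, was -0.447 to -0.431 in TCD and -0.26 to -0.218 in RWV, a difference of 0.209 ± 0.0149. At 4 h that difference was -0.0537 ± 0.0312, and for Gapdh at 24 h it was -0.0223 ± 0.0109. Its part in the vessel differences was not tested.

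Nearly the whole group of enzymes fell in culture. At 24 h in TCD, 28 of 34 members had fallen and 3 had risen relative to fresh cells, with a median change of -2.34, where 23.4% of all genes tested fell and 32.8% rose (56.2% called in all, median -0.01). In RWV at 24 h, 25 had fallen and 3 had risen, with a median of -1.39, where 19.2% of all genes fell and 30.7% rose (49.9% in all, median 0.01). The falls reached 2-fold for 25 members in TCD and 23 in RWV. In both vessels the 3 that rose were Akr1b8, Aldh18a1 and Aldh1l2. For Aldh18a1 in TCD the call rests on probe sets marked as sharing sequence, without which the change was 0.24 (adjusted p = 0.492). The Akr1b8 call in RWV was lost in 7 of 13 alternative settings.

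**Figure D1:**
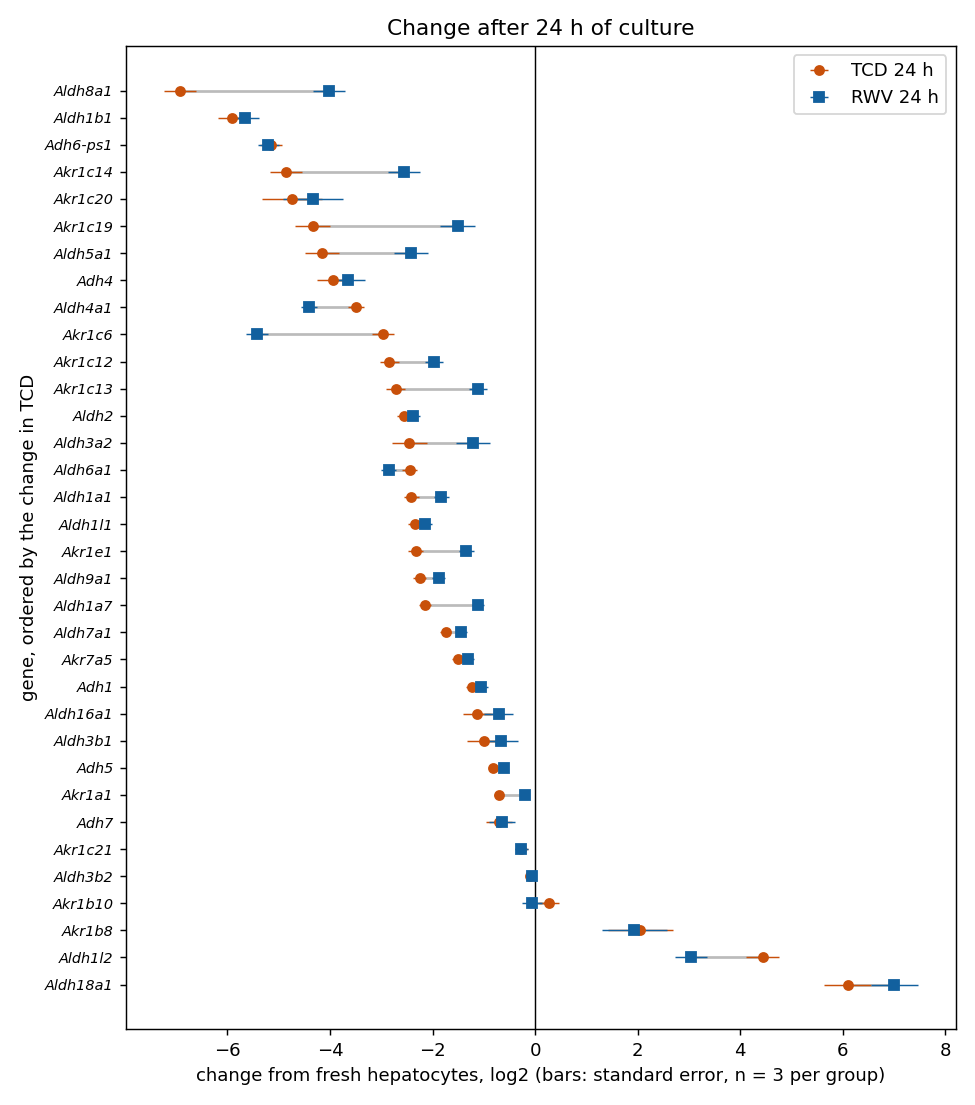
Change at 24 h from fresh cells (log2, horizontal axis) of the 34 members in TCD and in RWV, with standard errors as bars and the 2 values of a gene joined by a line. Most pairs lie left of 0, with TCD further left for Aldh8a1, Akr1c14, Akr1c19 and Aldh5a1 and RWV further left for Akr1c6 and Aldh4a1.

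These shares depend on where zero is set. Centring the arrays on 19 reference genes moved the median of all genes by -0.59 in TCD and -0.49 in RWV at 24 h. The split over all genes then went from 4076 higher and 2905 lower to 2602 and 6676 in TCD, and from 3817 and 2386 to 2385 and 6029 in RWV. Among the members it became 3 higher and 30 lower in TCD, and 2 higher and 31 lower in RWV. The reference genes were not stable themselves. Of the 19, 10 were higher and 4 lower than fresh in each vessel at 24 h, with medians of 0.61 in TCD and 0.54 in RWV. Between vessels at 24 h, 3 of them were higher in RWV and 4 were lower. They therefore do not give a fixed zero.

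**Figure D2:**
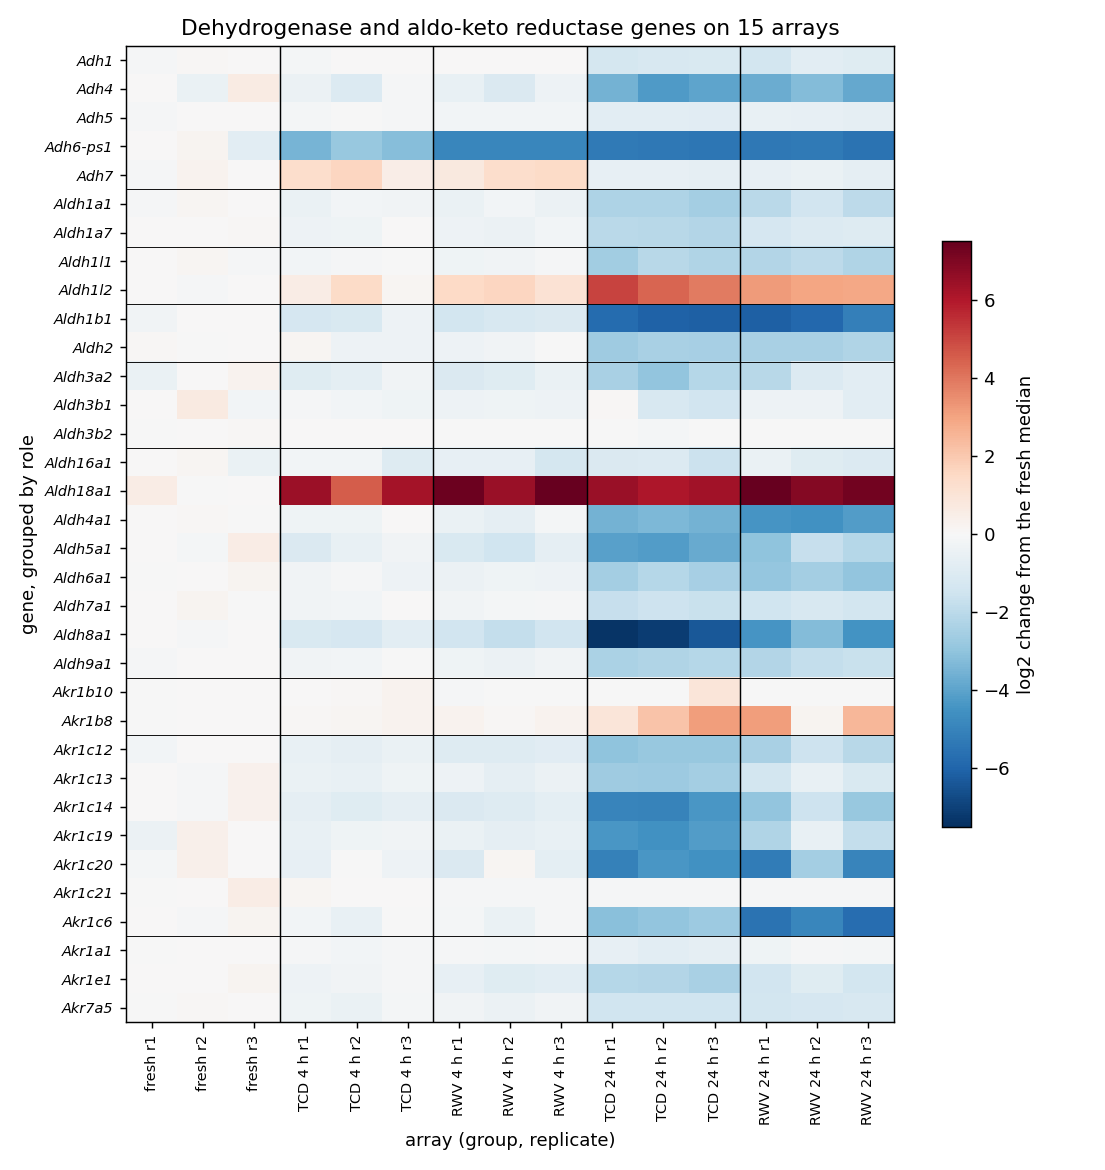
Log2 change from the fresh median (colour) of the 34 members tested (rows, by role) on each of the 15 arrays (columns, by group). The 24 h columns are mostly negative in both vessels, while Aldh18a1, Aldh1l2 and Akr1b8 are positive there.

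The vessels also differed at 24 h. Of the 34 members, 11 were higher and 3 were lower in RWV than in TCD, that is 41.2% of them, against 15.2% of all genes (8.36% higher and 6.86% lower). Their median difference was 0.30, against 0.00 for all genes. Differences of 2-fold or more were found for 7 higher and 2 lower members. The 11 that were higher had all fallen in TCD. Of these, 10 had also fallen in RWV, by less, and the exception was Akr1a1, at -0.19 ± 0.0822 (adjusted p = 0.0721), of whose 4 probe sets 2 were called lower. The 3 that were lower in RWV went different ways from fresh cells: Akr1c6 and Aldh4a1 fell further there, and Aldh1l2 rose less.

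At 4 h, 1 of 34 members differed between the vessels, the pseudogene Adh6-ps1, against 6.17% of all genes (0.668% lower), and the members' median difference was -0.14. With the replicate number as a block, Aldh18a1 was called too, higher in RWV by 1.49 (adjusted p = 0.0206, against 0.0844 without the block). Without TCD replicate 2 that difference, fitted without the block, was 0.88 (adjusted p = 0.217). These values are from the chosen probe set. All 5 sets of Aldh18a1 were higher in RWV at 4 h, by 0.5 to 1.49, and 1 was called without the block. It was 1415836_at, the set not marked as sharing sequence, at 1.03 ± 0.27 (adjusted p = 0.0465, over all probe sets tested). Relative to fresh cells, 7 members were called in TCD at 4 h (2 higher and 5 lower, against 9.54% and 15.9% of all genes and 25.5% in all) and 15 in RWV (3 higher and 12 lower, against 15.1% and 14.4% and 29.6% in all). With the replicate block these counts were 9 and 19. Both comparisons use the same fresh arrays. The TCD count fell to 3 without replicate 2 of TCD or of the fresh cells and to 4 without TCD replicate 1 or fresh replicate 3, and the RWV count fell to 8 without RWV replicate 2. Leaving out TCD replicate 2 ended the lower calls of Akr1c12 (-0.47, adjusted p = 0.122) and Akr7a5 (-0.25, adjusted p = 0.0705). It also ended those of Aldh1b1 (-0.76, adjusted p = 0.0864) and Aldh8a1 (-0.95, adjusted p = 0.0793).

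**Figure D3:**
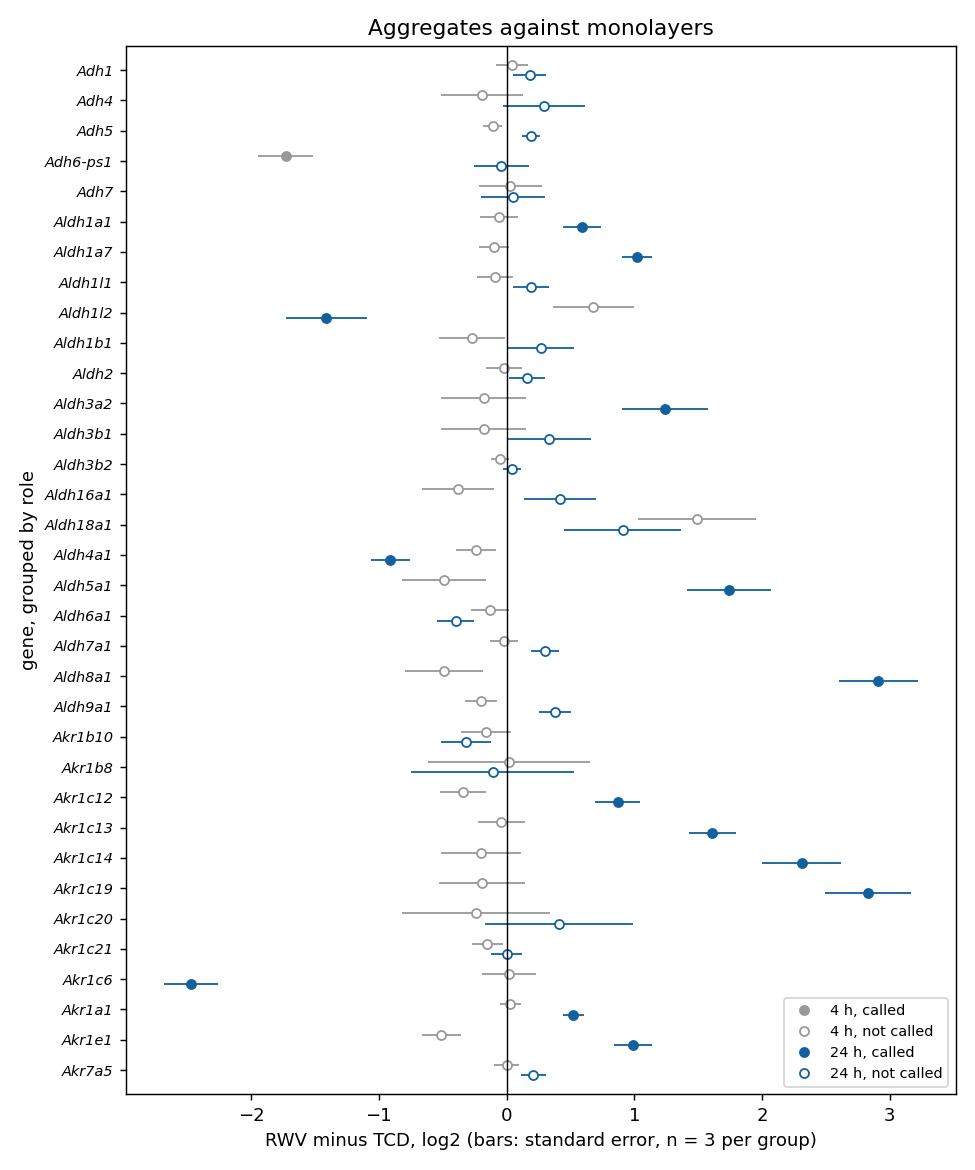
Difference RWV minus TCD (log2, horizontal axis) of the 34 members at 4 h and at 24 h, with standard errors as bars (n = 3 per group) and called members as filled points. At 4 h most members lie close to 0. At 24 h the points run from -2.47 for Akr1c6 to 2.91 for Aldh8a1.

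The Akr1c genes, which encode the hydroxysteroid dehydrogenases of the aldo-keto reductases, showed the widest range of vessel differences. They lie side by side on chromosome 13 in the order Akr1c14, Akr1c18, Akr1c13, Akr1c19, Akr1c12, Akr1c6, Akr1c20 and Akr1c21, with 3 pseudogenes between them. Of the 7 tested, 4 were higher in RWV at 24 h (Akr1c12, Akr1c13, Akr1c14 and Akr1c19), against 8.36% of all genes. Of the others, 1 was lower (Akr1c6), against 6.86%, and 2 were not called. The promoters of the 5 that differed are shown because neighbouring genes of 1 cluster went opposite ways. Each window is the RefSeq sequence from 250 bases before to 50 bases after the annotated start, in GRCm38.p6. Akr1c13 is at chr13:4190937-4191236 (plus strand), Akr1c12 at chr13:4279350-4279649 (minus strand) and Akr1c19 at chr13:4233490-4233789 (plus strand). Akr1c14 is at chr13:4059341-4059640 (plus strand) and Akr1c6 at chr13:4434093-4434392 (plus strand). Each is written 5′ to 3′ on the gene's own strand. Capitals mark the hexamer CATTAG and the TATA box motif TATAAA, searched on both strands, whose matches do not overlap each other.
Akr1c13: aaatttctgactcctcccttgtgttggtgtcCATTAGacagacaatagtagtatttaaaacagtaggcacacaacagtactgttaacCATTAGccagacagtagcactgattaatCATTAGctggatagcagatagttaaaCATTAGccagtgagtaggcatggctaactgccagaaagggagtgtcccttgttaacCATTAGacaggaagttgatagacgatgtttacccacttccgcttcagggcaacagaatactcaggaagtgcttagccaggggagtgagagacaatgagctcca
Akr1c12: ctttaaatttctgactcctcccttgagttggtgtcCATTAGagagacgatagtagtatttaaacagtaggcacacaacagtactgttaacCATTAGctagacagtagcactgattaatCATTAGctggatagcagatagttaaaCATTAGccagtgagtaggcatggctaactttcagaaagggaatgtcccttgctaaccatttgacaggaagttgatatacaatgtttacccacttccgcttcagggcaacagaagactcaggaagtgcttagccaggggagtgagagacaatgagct
Akr1c19: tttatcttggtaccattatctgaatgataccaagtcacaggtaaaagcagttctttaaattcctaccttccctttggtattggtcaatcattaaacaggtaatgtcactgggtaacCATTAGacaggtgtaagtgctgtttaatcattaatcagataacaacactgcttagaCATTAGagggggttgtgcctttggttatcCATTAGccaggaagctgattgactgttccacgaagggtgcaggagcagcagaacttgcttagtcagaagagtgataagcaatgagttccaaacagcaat
Akr1c14: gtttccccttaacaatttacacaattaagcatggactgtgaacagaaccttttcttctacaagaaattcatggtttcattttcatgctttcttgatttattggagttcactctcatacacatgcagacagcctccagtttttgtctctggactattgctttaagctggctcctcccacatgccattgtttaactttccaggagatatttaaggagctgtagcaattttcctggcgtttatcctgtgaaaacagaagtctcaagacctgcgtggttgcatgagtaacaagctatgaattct
Akr1c6: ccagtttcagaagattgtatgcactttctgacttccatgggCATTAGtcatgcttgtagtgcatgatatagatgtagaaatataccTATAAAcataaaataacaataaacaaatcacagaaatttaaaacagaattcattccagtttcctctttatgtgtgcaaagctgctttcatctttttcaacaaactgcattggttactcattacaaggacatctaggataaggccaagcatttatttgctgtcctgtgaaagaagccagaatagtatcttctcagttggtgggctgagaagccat

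The hexamer CATTAG was picked after these sequences had been read, so its counts are a description. It occurs 5 times in the Akr1c13 window, 4 times in Akr1c12, 3 times in Akr1c19, 1 time in Akr1c6 and not in Akr1c14. Of 32851 mouse promoter windows of the same length, 7.36% hold it at least once. Only 9 (0.0274%) hold 3 or more copies, among them those of Akr1c13, Akr1c12 and Akr1c19, while the others belong to Cyp2c39, Fmo9 and 4 predicted genes. The Akr1c13 and Akr1c12 windows are near copies, identical at 93.4% of aligned positions. That of Akr1c19 matches them at 59.8% and 58.7%. The pairs that involve Akr1c14 or Akr1c6 matched at 52.8% or less. TATAAA, counted at any position, is found in Akr1c6 alone of the 5, and in 13.6% of all windows. The match in Akr1c6 lies nearer the upstream end of the window than the annotated start. Whether that match acts as a TATA box was not tested.

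Akr1c19 had the largest vessel difference of the cluster. Its changes from fresh were -4.36, -4.57 and -4.21 in TCD at 24 h and -2.25, -0.58 and -1.81 in RWV. At 4 h they were -0.53, -0.32 and -0.29 in TCD and -0.47, -0.66 and -0.57 in RWV, and the fresh arrays were at -0.46, 0.36 and 0. The vessels do not overlap at 24 h, and the RWV array of replicate 2 lay within the range of the 4 h arrays. RWV exceeded TCD at 24 h by 2.83 ± 0.336 (7.11-fold, adjusted p = 0.000155, n = 3 per group).

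Akr1c14, a mouse 3-alpha-hydroxysteroid dehydrogenase, was at -4.96, -4.99 and -4.37 in TCD at 24 h and at -2.98, -1.57 and -2.86 in RWV. Its 4 h values were -0.65, -0.89 and -0.67 in TCD and -1.07, -0.99 and -0.74 in RWV, with the fresh arrays at 0, -0.06 and 0.32. It fell in both vessels, and every RWV array at 24 h stayed above every TCD array. The difference was 2.31 ± 0.31 (4.94-fold, adjusted p = 0.000368).

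Akr1c13 was at -2.66, -2.73 and -2.52 in TCD at 24 h and at -1.36, -0.58 and -1.14 in RWV. At 4 h it stood at -0.48, -0.54 and -0.33 in TCD and at -0.38, -0.67 and -0.42 in RWV, and the fresh arrays read 0, -0.09 and 0.34. Again the groups at 24 h do not overlap, and those at 4 h do. The difference at 24 h was 1.61 ± 0.182 (3.06-fold, adjusted p = 0.000106). For its near copy Akr1c12 it was 0.87 ± 0.178 (1.83-fold, adjusted p = 0.00567). A probe set that the annotation gives to both Akr1c12 and Akr1c13 was not tested, and its mean was -2.74 in TCD and -1.32 in RWV at 24 h. How far the probe sets of such similar genes share signal was not tested.

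Akr1c6, a 17-beta-hydroxysteroid dehydrogenase of mouse liver, went against Akr1c12, Akr1c13, Akr1c14 and Akr1c19. It was at -3.12, -2.95 and -2.70 in TCD at 24 h and at -5.56, -4.89 and -5.72 in RWV. The 4 h arrays were still near fresh, at -0.20, -0.53 and -0.03 in TCD and -0.14, -0.48 and -0.10 in RWV, with 0, -0.09 and 0.20 in fresh cells. The vessels separate without overlap at 24 h, in the direction opposite to Akr1c13, Akr1c14 and Akr1c19. Akr1c6 was lower in RWV by a log2 difference of -2.47 ± 0.212 (5.53-fold, adjusted p = 1.32e-05).

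Akr1c20, next to Akr1c6, fell in both vessels (-4.74 ± 0.578 in TCD and -4.33 ± 0.578 in RWV at 24 h) and did not differ between them (0.41 ± 0.578, adjusted p = 0.786). Its RWV arrays at 24 h read -5.24, -2.52 and -4.98, so that replicate 2 stood apart there too. Without that array its difference turned to -0.45 (adjusted p = 0.54), so the direction in this probe set rests on replicate 2. The other Akr1c20 probe set gave a difference of 0.53 ± 0.215 with all arrays and was not called either (adjusted p = 0.134). The differences of the neighbours of Akr1c20 without RWV replicate 2 were 2.35 for Akr1c19, 1.85 for Akr1c14, 1.39 for Akr1c13, 0.63 for Akr1c12 and -2.72 for Akr1c6, all still called. Replicate 2 was the highest of the RWV arrays at 24 h for 19 of the 31 members whose RWV values were all below fresh. Akr1c21 changed little, at -0.27 ± 0.124 against fresh cells in each vessel at 24 h, and was not called.

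**Figure D4:**
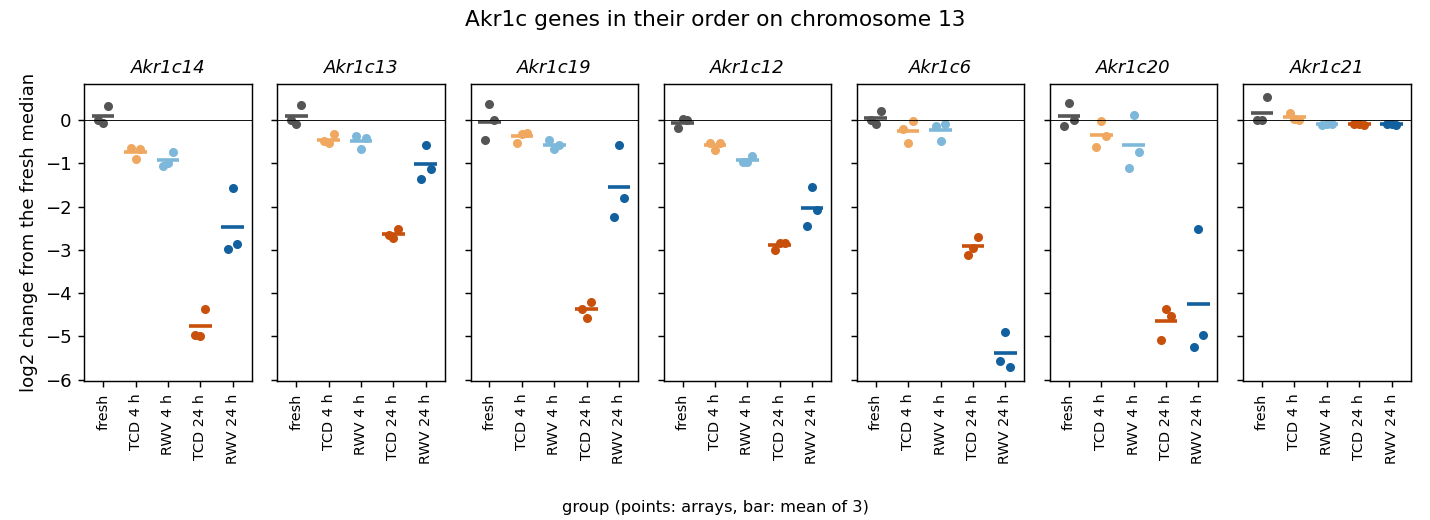
Log2 change from the fresh median (vertical axis) of the Akr1c genes tested, in their order along chromosome 13 (panels), with 1 point per array and a bar for the mean of 3 in each of the 5 groups. At 24 h the RWV points of Akr1c14, Akr1c13, Akr1c19 and Akr1c12 lie above the TCD points, and those of Akr1c6 lie below.

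Of the 3 other reductases, Akr1e1 and Akr1a1 were called higher in RWV at 24 h, against 8.36% of all genes, and Akr7a5 was not called. Akr1e1, which reduces 1,5-anhydrofructose, fell by 2.33 in TCD and by 1.34 in RWV at 24 h and was higher in RWV by 0.99 ± 0.152 (1.99-fold, adjusted p = 0.000926). Its other probe set gave a difference of 0.24 ± 0.259 (adjusted p = 0.672) and changes of -0.70 in TCD and -0.47 in RWV, and the mean of both sets gave 0.62 (adjusted p = 0.0222), so the size is uncertain. Akr1a1, the aldehyde reductase that also serves vitamin C synthesis in mice, was higher in RWV by 0.52 ± 0.0822 (1.43-fold, adjusted p = 0.00112). All 4 probe sets of Akr1a1 were called in that direction, with differences from 0.27 to 0.52. Akr7a5, which reduces succinic semialdehyde and aflatoxin aldehydes, changed by -1.51 in TCD and -1.30 in RWV and was not called between vessels (0.21 ± 0.1, adjusted p = 0.203).

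Akr1b8, of the aldose reductase group, was 1 of the 3 members that rose. At 24 h it was at 0.90, 2.15 and 3.11 in TCD and at 3.13, 0.22 and 2.47 in RWV, while all 9 fresh and 4 h arrays lay between -0.01 and 0.28. The 2 vessels overlap across most of their range. The rise was 2.05 ± 0.635 in TCD (adjusted p = 0.0148) and 1.94 ± 0.635 in RWV (adjusted p = 0.0227). Its call was lost when TCD replicate 3 was left out (1.52, adjusted p = 0.0732) and, in RWV, without replicate 1 (1.34, adjusted p = 0.105) or replicate 3 (1.67, adjusted p = 0.0847) or any 1 fresh array (adjusted p from 0.0512 to 0.0528). Akr1b10 was not called in any of the 7 comparisons, and 1 TCD array at 24 h, at 0.89, stood above the other 14, which read -0.08 to 0.26.

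The alcohol dehydrogenases fell in culture in both vessels. Their genes are neighbours on chromosome 3, in the order Adh7, Adh1, Adh6a, Adh6b, Adh6-ps1, Adh4 and Adh5. All 5 tested fell by 24 h in both vessels, against 23.4% of all genes in TCD and 19.2% in RWV. Their changes ran from -5.15 to -0.70 in TCD and from -5.20 to -0.61 in RWV. None of the 5 was called between vessels at 24 h, against 15.2% of all genes, and the differences ran from -0.04 to 0.29. Adh6a and Adh6b did not pass the background filter.

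Adh1, the main ethanol and retinol dehydrogenase of mouse liver, was at -1.29, -1.20 and -1.17 in TCD at 24 h and at -1.38, -0.82 and -0.93 in RWV. At 4 h it had scarcely moved, at -0.13, 0.01 and 0.03 in TCD and 0.01, 0.02 and 0 in RWV, with -0.07, 0.10 and 0 in fresh cells. The vessels overlap at both times. Its change at 24 h was -1.23 ± 0.126 in TCD (adjusted p = 3.5e-06) and -1.05 ± 0.126 in RWV (adjusted p = 1.98e-05), and the vessels differed by 0.18 ± 0.126 (adjusted p = 0.439).

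Adh4, which oxidises retinol and longer alcohols, fell further, with changes of -3.94 in TCD and -3.64 in RWV. Adh5, the glutathione-dependent formaldehyde dehydrogenase, changed by -0.81 in TCD and -0.61 in RWV. Adh7, the retinol dehydrogenase known best from the stomach, first rose at 4 h, by 1.07 ± 0.249 in TCD (adjusted p = 0.00757) and 1.10 ± 0.249 in RWV (adjusted p = 0.00567). At 24 h it was below fresh by -0.70 ± 0.249 (adjusted p = 0.0301) and -0.64 ± 0.249 (adjusted p = 0.0483), and these late calls were lost when any 1 of the 24 h arrays was left out of its comparison (adjusted p from 0.0603 to 0.118). Leaving out 1 fresh array also ended them, except for fresh replicate 1 in TCD (adjusted p from 0.0534 to 0.147). The early TCD call was lost when only the arrays compared were fitted (adjusted p = 0.0921). The other Adh7 probe set was not called at 4 h, at 0.93 in TCD (adjusted p = 0.122) and 0.29 in RWV (adjusted p = 0.663). At 24 h it stood at -1.14 in TCD (adjusted p = 0.0294) and -0.55 in RWV (adjusted p = 0.297). The early rise is therefore uncertain.

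Adh6-ps1, annotated as a transcribed pseudogene, had the largest fall of the members at 4 h in both vessels. It was at -3.47, -2.84 and -3.17 in TCD at 4 h and at -4.92, -4.87 and -4.89 in RWV. At 24 h it was at -5.30, -5.35 and -5.41 in TCD and at -5.36, -5.30 and -5.53 in RWV, with 0, 0.18 and -0.77 in fresh cells. The vessels are apart at 4 h and overlap at 24 h. The difference at 4 h was -1.73 ± 0.213 (3.32-fold lower in RWV, adjusted p = 0.00112), and without TCD replicate 2 it was -1.57 ± 0.221 (adjusted p = 0.00401). Whether the 24 h values mark the lower limit of the probe set cannot be read from values without a level.

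The retinaldehyde dehydrogenase Aldh1a1 and its close relative Aldh1a7 fell in both vessels and less in RWV. They lie side by side on chromosome 19 with 1 pseudogene between them. Aldh1a1, which makes retinoic acid from retinaldehyde, was at -2.34, -2.29 and -2.53 in TCD at 24 h and at -2.01, -1.45 and -1.95 in RWV. Its 4 h arrays read -0.47, -0.23 and -0.26 in TCD and -0.49, -0.22 and -0.43 in RWV, and its fresh arrays -0.08, 0.16 and 0. The 24 h groups are close but do not overlap. The difference was 0.59 ± 0.148 (1.5-fold, adjusted p = 0.0191). It was no longer called without RWV replicate 2 (0.41, adjusted p = 0.0661) or without TCD replicate 3 (0.51, adjusted p = 0.0767).

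Aldh1a7, a rodent copy of Aldh1a1, was at -2.05, -2.10 and -2.17 in TCD at 24 h and at -1.26, -1.04 and -0.95 in RWV. At 4 h it was at -0.38, -0.34 and 0 in TCD and -0.40, -0.43 and -0.20 in RWV, with 0, 0 and 0.11 in fresh cells. The gap between the vessels at 24 h is wide beside the spread within each. The difference was 1.02 ± 0.118 (2.03-fold, adjusted p = 0.000128). Aldh1a2 and Aldh1a3, the other 2 members with an Aldh1a symbol, did not pass the filter.

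Of 25 other retinoid genes tested, 5 were higher and 1 was lower in RWV at 24 h, with a median difference of -0.08. For this list and those below, the shares of all genes in that comparison were 8.36% higher and 6.86% lower. Among them were Dhrs3, a retinaldehyde reductase (1.71 ± 0.386), Rxrg (1.33 ± 0.314) and Stra6l, a retinol-binding protein receptor (1.32 ± 0.175). The retinol dehydrogenase Rdh10 was lower, at -1.29 ± 0.302. None of the 25 was called between vessels at 4 h, against 6.17% of all genes.

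The acetaldehyde dehydrogenases of mitochondria, Aldh2 and Aldh1b1, fell in both vessels. Aldh2, which clears the acetaldehyde made from ethanol, was at -2.65, -2.46 and -2.48 in TCD at 24 h and at -2.41, -2.42 and -2.27 in RWV. The 4 h arrays read 0.16, -0.36 and -0.39 in TCD and -0.39, -0.24 and -0.02 in RWV, and the fresh arrays 0.08, -0.01 and 0. The 24 h groups adjoin each other with hardly a gap. The fall was 2.55 ± 0.144 in TCD and 2.39 ± 0.144 in RWV, and the vessel difference was 0.16 ± 0.144 (adjusted p = 0.567). Aldh1b1 changed by -5.92 in TCD and by -5.65 in RWV, the second largest fall of the members in TCD, and differed by 0.27 ± 0.259 (adjusted p = 0.604).

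Aldh2 has 5 probe sets that passed the filter, and they did not agree on the vessel. All 5 fell by 24 h in both vessels, with changes from -2.63 to -1.04 in TCD and from -2.39 to -0.77 in RWV. Probe set 1437410_at was higher in RWV by 1.47 ± 0.307 at 4 h (adjusted p = 0.0178) and by 1.66 ± 0.307 at 24 h (adjusted p = 0.00338, both over all probe sets tested), while the other 4 ran from 0.16 to 0.58 at 24 h and were not called. The vessel difference of Aldh2 is therefore uncertain.

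**Figure D5:**
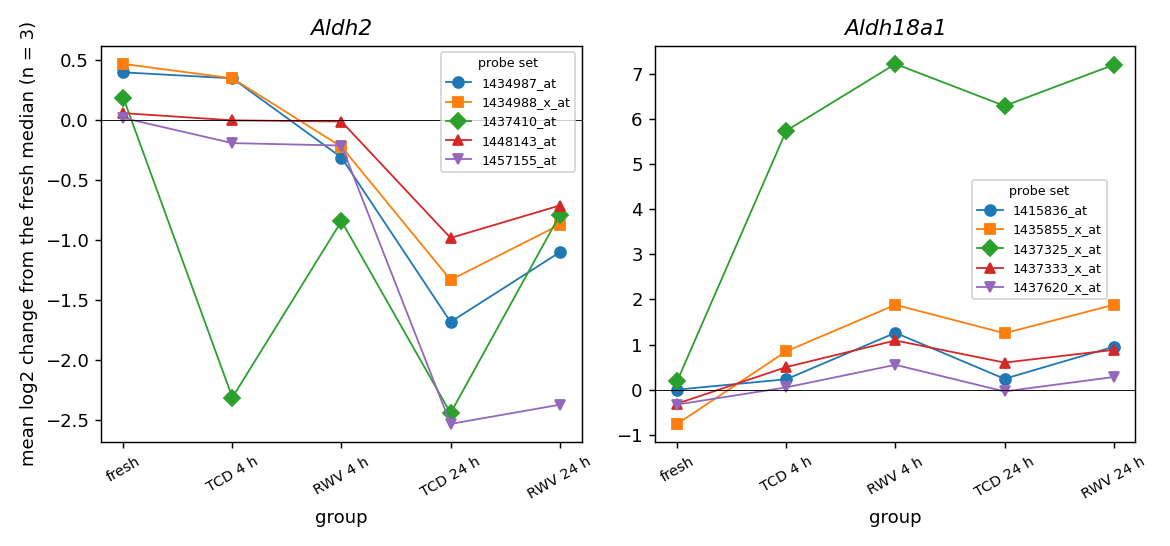
Group means (n = 3 arrays) of the log2 change from the fresh median for each of the 5 probe sets of Aldh2 and of Aldh18a1, joined by lines over the 5 groups. In Aldh2, 1437410_at is already low in TCD at 4 h. In Aldh18a1, 1437325_x_at rises far above the other 4.

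Of 7 other genes of ethanol, acetate and fructose handling, 4 were higher and 1 was lower in RWV at 24 h, with a median difference of 0.32. Aox1, an aldehyde oxidase, was higher by 1.71 ± 0.182, Khk, the ketohexokinase that starts fructose breakdown, by 1.64 ± 0.111, and Acss2, which activates acetate, by 1.09 ± 0.309. Cyp2e1, the ethanol-inducible cytochrome, was lower by a log2 difference of -0.41 ± 0.095. All 7 had fallen in TCD at 24 h, against 23.4% of all genes.

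The folate-linked pair moved in opposite directions. Aldh1l1, the cytosolic 10-formyltetrahydrofolate dehydrogenase, fell by 2.34 in TCD and 2.15 in RWV at 24 h, and the vessels were not called different (0.19 ± 0.139, adjusted p = 0.442). Aldh1l2, its mitochondrial counterpart, was at 5.04, 4.34 and 3.89 in TCD at 24 h and at 3.17, 2.96 and 2.92 in RWV. At 4 h it was at 0.57, 1.41 and 0.14 in TCD and 1.49, 1.60 and 1.08 in RWV, with 0, -0.11 and 0.05 in fresh cells. Every TCD array at 24 h was above every RWV array, while at 4 h the groups overlap. The rise was 4.44 ± 0.315 in TCD and 3.04 ± 0.315 in RWV, and the vessel difference at 24 h was -1.41 ± 0.315 (2.65-fold lower in RWV, adjusted p = 0.00949).

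Of 15 other folate genes tested, 4 had risen and 9 had fallen at 24 h in each vessel. Of all genes, 32.8% rose and 23.4% fell in TCD, and 30.7% rose and 19.2% fell in RWV. Between vessels at 24 h, 3 were higher in RWV and 1 was lower, with a median of 0.04. Gldc, the glycine-cleaving decarboxylase, was higher by 2.58 ± 0.501 and Shmt1, the cytosolic serine hydroxymethyltransferase, by 2.15 ± 0.354. Mthfd1, a cytosolic enzyme that interconverts folate one-carbon units, was higher by 0.84 ± 0.157. The mitochondrial Shmt2 was lower, at -0.54 ± 0.16.

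Among the 8 aldehyde dehydrogenases of amino acid breakdown and related routes, 7 had fallen in TCD at 24 h, against 23.4% of all genes. Aldh18a1 had risen by its chosen probe set. Between vessels at 24 h, 2 were higher in RWV (Aldh8a1 and Aldh5a1), 1 was lower (Aldh4a1) and 5 were not called. Of all genes, 8.36% were higher and 6.86% were lower.

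Aldh8a1, which acts on 2-aminomuconic semialdehyde in tryptophan breakdown, had both the largest fall in TCD and the largest vessel difference of the members. It was at -7.38, -7.11 and -6.38 in TCD at 24 h and at -4.41, -3.26 and -4.46 in RWV. At 4 h it was at -1.16, -1.26 and -0.79 in TCD and -1.45, -1.78 and -1.46 in RWV, with 0, -0.08 and 0.01 in fresh cells. The order of the vessels is thus opposite at the 2 times, without overlap at either. At 24 h RWV was higher by 2.91 ± 0.309 (7.53-fold, adjusted p = 6.8e-05), and by 2.52 without RWV replicate 2. Both of its probe sets were called, at 2.91 and 2.69. The difference at 4 h, -0.49 ± 0.309, was not called.

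Aldh5a1, succinic semialdehyde dehydrogenase of the GABA route, was at -4.10, -4.17 and -3.77 in TCD at 24 h and at -2.99, -1.72 and -2.12 in RWV. The 4 h arrays read -1.06, -0.55 and -0.25 in TCD and -1.17, -1.48 and -0.69 in RWV, and the fresh arrays 0, -0.13 and 0.55. The groups are separate at 24 h and overlap at 4 h. The difference at 24 h was 1.74 ± 0.328 (3.33-fold, adjusted p = 0.00345).

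Aldh4a1, which completes proline breakdown by oxidising pyrroline-5-carboxylate, fell further in RWV (-4.41 ± 0.155) than in TCD (-3.50 ± 0.155), a difference of -0.91 ± 0.155 (1.88-fold, adjusted p = 0.00176). Its TCD arrays at 24 h lay between -3.55 and -3.38 and its RWV arrays between -4.57 and -4.18. Aldh6a1, of valine and pyrimidine breakdown, changed by -2.44 in TCD and -2.85 in RWV. Aldh7a1, of lysine breakdown, changed by -1.74 in TCD and -1.44 in RWV, but its other probe set was not called, at -0.26 (adjusted p = 0.271) and -0.25 (adjusted p = 0.314), so its fall is uncertain. Aldh9a1, of carnitine synthesis, changed by -2.25 in TCD and -1.88 in RWV, and none of these 3 was called between vessels (adjusted p from 0.0619 to 0.0908). Without RWV replicate 2, Aldh6a1 was called lower in RWV (-0.54, adjusted p = 0.0382). Aldh16a1, a family member without a settled enzymatic role, fell by 1.13 in TCD (adjusted p = 0.004) and stood at -0.71 ± 0.281 in RWV (adjusted p = 0.0526).

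Aldh18a1, the pyrroline-5-carboxylate synthase that starts proline synthesis, had the largest rise, and its size depends on the probe set. The chosen set, 1437325_x_at, was at 6.44, 4.53 and 6.25 in TCD and 7.38, 6.48 and 7.82 in RWV at 4 h, with fresh arrays at 0.58, -0.02 and 0. The other 4 sets ran from 0.23 to 1.61 in TCD and from 0.88 to 2.64 in RWV at that time. Against fresh cells, 1 of 5 sets was called in TCD and 4 of 5 in RWV at 4 h, and 2 of 5 and 4 of 5 at 24 h, all of them higher. With probe sets marked as sharing sequence left out, the TCD change was 0.23 at 4 h (adjusted p = 0.621) and 0.24 at 24 h (adjusted p = 0.492), and the RWV change was 1.27 (adjusted p = 0.00412) and 0.95 (adjusted p = 0.0118).

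Of 12 partner genes of proline, lysine and carnitine metabolism tested, all 12 had fallen in TCD and 11 in RWV at 24 h. Of all genes, 23.4% fell in TCD and 19.2% in RWV. Between vessels 3 were higher in RWV and 2 were lower, with a median of 0.01. Bbox1, the last enzyme of carnitine synthesis, was higher by 1.81 ± 0.416, and Chdh, a choline dehydrogenase, by 1.05 ± 0.207. Oat, which feeds ornithine into pyrroline-5-carboxylate, and Aass, which opens lysine breakdown, were lower, at -1.33 ± 0.182 and -1.24 ± 0.246.

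Aldh3a2 is the fatty aldehyde dehydrogenase of the endoplasmic reticulum. Of the 3 fatty and aromatic aldehyde dehydrogenases tested it alone was called between vessels at 24 h, against 15.2% of all genes. It was at -2.42, -2.98 and -2.16 in TCD at 24 h and at -2.06, -1.01 and -0.79 in RWV. At 4 h it was at -0.88, -0.72 and -0.27 in TCD and -1.06, -0.88 and -0.48 in RWV, with -0.49, 0 and 0.26 in fresh cells. The lowest RWV array at 24 h lies just above the highest TCD array. The difference was 1.24 ± 0.335 (2.36-fold, adjusted p = 0.0265), and it was lost without TCD replicate 1 or 2 or RWV replicate 2 or 3 (0.99 to 1.29, adjusted p from 0.0522 to 0.116). Aldh3b1 fell in TCD by 1 log2 unit (adjusted p = 0.0207) although its TCD and fresh arrays overlap. Without TCD replicate 2 or 3 or fresh replicate 2 it was not called (adjusted p from 0.0827 to 0.0991). Aldh3b2 stayed within -0.14 to 0.10 on all 15 arrays.

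The 7 members that did not pass the filter followed the array background: Adh6a, Adh6b, Akr1c18, Akr1cl, Aldh1a2, Aldh1a3 and Aldh3a1. Their values lay between -0.21 and 0.53 over all 15 arrays, and between -0.17 and 0.21 without Aldh1a3. Aldh3a1, a target of the aryl hydrocarbon receptor, kept to -0.07 to 0.15, while that receptor's target Cyp1a1 was higher in RWV at 24 h by 6.20 ± 0.424 and Nqo1 by 2.10 ± 0.266. Cyp1a1 and Nqo1 were the 2 called of 7 genes of that list tested, with a median of 0.41.

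Other carbonyl reductases and the genes under the oxidant-sensing factor NRF2 overlap in chemistry with the members. Of 18 other carbonyl reductases tested, 6 were higher and 1 was lower in RWV at 24 h, with a median of 0.21. Cbr3 was higher by 3.70 ± 0.539 and Cbr1 by 1.90 ± 0.441, and Dhrs7, a short-chain dehydrogenase, by 1.31 ± 0.338. Dcxr, which reduces xylulose, was lower, at -1.08 ± 0.151. Of 22 NRF2 genes tested, 11 were higher and 1 was lower, with a median of 0.69. Gstm3, a glutathione transferase, was higher by 3.47 ± 0.347 and Abcc4, an export pump, by 2.62 ± 0.572. Cbr1, Cbr3 and Nqo1 also belong to this list. The 1 lower gene was Hmox1, a heme oxygenase, at -1.13 ± 0.341. At 4 h only Cbr3 (2.61 ± 0.539) and Pgd (1.51 ± 0.223) were called in these 2 lists. Across the promoter windows of 32 members, the core TGACNNNGC bound by NRF2 was found in 14.3% of 35 windows, against 12.4% of all windows, and the core GCGTG of the aryl hydrocarbon receptor in 31.4% against 32.4%, on either strand.

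The vessel difference changed between 4 h and 24 h for 12 of 34 members, 10 upward and 2 downward, against 12.7% of all genes (4.93% upward and 7.73% downward). The median change was 0.49 for the members and 0.00 for all genes. Of the 12, 11 were called between vessels at 24 h and not at 4 h. Aldh8a1 had the largest change, 3.41 ± 0.437 (adjusted p = 0.000691), followed by Akr1c19 at 3.02 ± 0.475 (adjusted p = 0.00212). Akr1c6 changed by -2.48 ± 0.299 (adjusted p = 0.000456) and Aldh1l2 by -2.09 ± 0.445 (adjusted p = 0.0105). In Adh6-ps1 the change of 1.69 ± 0.301 (adjusted p = 0.0042) was the loss of its 4 h difference.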

How the data were processed

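The deposited values were log2 signals of 45101 probe sets on 15 arrays, made by the authors with GCRMA (per the submitters' processing notes, version not given in the sources used here). The median of the 3 fresh arrays was 0 in all 45101 (tolerance 1e-06), so no level could be used as a filter. The median of the 20% least variable probe sets was taken on each array as its background. A probe set was left out when it correlated with this background above 0.8 and its SD was under 0.5. Of 34945 probe sets with 1 symbol, 12849 were removed, and the remaining set with the largest SD was kept for each gene.

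Groups were compared with limma 3.58.1 in R 4.3.3 with the package data.table (version 1.17.8) in 1 fit with 10 residual degrees of freedom, after the script had been tested on simulated data. Folds are 2 to the power of the log2 difference. Replicate numbers recur in all groups, and their meaning is not given in the labels. The correlations of same-numbered arrays, after subtraction of group means, were all positive. They exceeded 0.1 for all 3 numbers in 5 of 10 pairs of groups. These included all pairs among TCD 4 h, RWV 4 h and fresh (0.368, 0.493 and 0.522 between the vessels). The 24 h pairs compared did not reach this for all 3 numbers (0.132, 0.0833 and 0.364 between the vessels). The pairing therefore comes from the data, and the block was kept as an alternative.

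Promoters came from RefSeq (GRCm38.p6), matched by the gene identifier in the platform annotation for 32 of 41 members. They were searched with Python 3.11.15, pandas 2.3.3 and Biopython 1.88. Figures were drawn with matplotlib 3.10.9. Members and gene lists were chosen with earlier results of these data known. Values on every array are given for called members with a vessel difference of at least 1 (log2) and for Adh1, Aldh2 and Aldh1a1. From a list, at most 4 called genes are named, those with the largest vessel difference at 24 h. Hmox1, Pgd and the cell markers fall outside this rule and were named, for counts of 5 or fewer, after their values were seen.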

Additional observations from a re-analysis of the deposited data

Results flagged for a closer look

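For 12 members the difference between vessels was itself different at 24 h and at 4 h by limma's interaction term (adjusted p below 0.05 over all genes). The change of the log2 difference was 3.41 for Aldh8a1, 3.02 for Akr1c19, 2.5 for Akr1c14, 2.23 for Aldh5a1, 1.69 for Adh6-ps1, 1.65 for Akr1c13, 1.5 for Akr1e1, 1.21 for Akr1c12, 1.12 for Aldh1a7 and 0.49 for Akr1a1. It was -2.48 for Akr1c6 and -2.09 for Aldh1l2. In Akr1e1 the vessels stood at -0.51 at 4 h and 0.99 at 24 h. The other Akr1e1 probe set was not called for this change (0.26, adjusted p = 0.702), and 1 of the 4 Akr1a1 sets was called.

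The probe set assigned to both Akr1c12 and Akr1c13, which no test used, fell to a mean of -2.74 in TCD at 24 h, against 0.01 in fresh cells. Groups of 3 arrays were not screened for outlying values.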

How the results depend on the processing

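No called value of a member changed direction under any alternative, and 84 of 108 kept their call in all of those run. Of the 14 members called between vessels at 24 h, 11 did so, and of the 12 whose vessel difference changed with time, 12. Akr1c12 lost its call at 24 h when only the arrays compared were fitted (adjusted p = 0.0624), as did Aldh1a1 (0.0755) and Aldh3a2 (0.0942). The 1 member called between vessels at 4 h became 8 without the background filter (1 higher and 7 lower, where 38.1% of all genes were then called and 5 of the 8 were background genes), 2 without probe sets of shared sequence and 2 with the replicate block. The cause was not tested.

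When 1 array was left out, members called between vessels numbered 1 to 2 at 4 h (2 without TCD replicate 1) and 13 to 16 at 24 h, and 12 to 15 for the interaction. Against fresh cells they numbered 3 to 8 in TCD and 8 to 13 in RWV at 4 h, and 28 to 32 in TCD and 26 to 27 in RWV at 24 h. Array weights gave 20 members between vessels at 24 h (16 higher and 4 lower) and 14 for the interaction. The replicate block gave 17 members between vessels at 24 h, 17 for the interaction, and 31 (TCD) and 29 (RWV) against fresh cells at 24 h. It added calls for Aldh6a1, Aldh9a1 and Aldh16a1 between vessels at 24 h and removed none. Centring on reference genes gave 17 members between vessels at 24 h (14 higher and 3 lower), where the split over all genes went from 1038 higher and 852 lower to 1370 and 652, and 22 members in RWV at 4 h against fresh cells (3 higher and 19 lower). For the interaction the split over all genes went from 613 and 960 to 866 and 657, and for RWV at 4 h from 1880 and 1791 to 1635 and 2928. Without a signal level, signal over background could not be set beside these values. Fitting each probe set on its own, and the values without TCD 4 h replicate 2, were chosen after seeing the data.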
